A study of Mus musculus with 16 samples.

Results

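The transcripts of 40 genes for synaptic vesicle, SNARE, active zone and endocytosis proteins were followed in the cell bodies and axons of cultured mouse motoneurons with and without hnRNP R. They were taken by symbol from the 46320 genes of the count table, without synaptotagmin and Rab genes, and all 40 were found. Embryonic day 13 mice gave the lumbar spinal cords, from which motoneurons were enriched by p75NTR panning. A microfluidic chamber kept their axons separate from somata and dendrites. The 4 groups were somatodendritic and axonal RNA of WT (+/+) motoneurons and of hnRNP R KO (*Hnrnpr*-/-) motoneurons, with 4 libraries each, 16 in all. The knockout was a CRISPR/Cas9 deletion of *Hnrnpr* exons 1 to 5 present in every cell of the culture, on a C57Bl/6 background. All cultures received CNTF on both sides of the chamber and BDNF on the axonal side only, so the medium also differed between the compartments. Axonal cDNA was amplified with more PCR cycles than somatodendritic cDNA. The compartment comparison asks which of these transcripts are found in axons, and the genotype comparison whether loss of hnRNP R changes them.

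At a nerve terminal, transmitter is stored in synaptic vesicles that dock at the active zone, a protein scaffold on the presynaptic membrane. Fusion is driven by SNARE proteins, a vesicular VAMP with syntaxin and a SNAP-25 family member, which complexins and Munc13 proteins control and which NSF and its SNAP adaptors take apart afterwards. Vesicle membrane is then recovered by endocytosis. The proteins are made largely in the cell body and carried along the axon. The genes are given here in 5 roles, with 10 vesicle proteins, 7 SNAREs, 11 SNARE regulators, 8 active zone proteins and 4 endocytosis proteins.

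Several members come as a neuronal gene and a relative used in most cell types, and both kinds are close in sequence. The stretches below are the most alike 150 bases of the coding sequences of *Vamp2* and *Vamp3* and of *Snap25* and *Snap23*, which are shown because these relatives differed in direction between the compartments under TMM scaling. They lie in the SNARE motifs and are given 5′ to 3′ on the coding strand of the canonical GENCODE transcripts (GRCm39), where capitals mark the bases that differ within a pair.
Vamp2: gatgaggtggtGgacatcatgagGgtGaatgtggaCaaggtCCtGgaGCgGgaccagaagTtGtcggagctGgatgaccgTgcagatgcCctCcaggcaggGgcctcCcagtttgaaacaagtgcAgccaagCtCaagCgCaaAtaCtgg
Vamp3: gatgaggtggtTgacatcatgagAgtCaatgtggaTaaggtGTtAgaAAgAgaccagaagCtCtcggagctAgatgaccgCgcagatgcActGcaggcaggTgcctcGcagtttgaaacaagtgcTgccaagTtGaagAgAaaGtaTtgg
Snap25: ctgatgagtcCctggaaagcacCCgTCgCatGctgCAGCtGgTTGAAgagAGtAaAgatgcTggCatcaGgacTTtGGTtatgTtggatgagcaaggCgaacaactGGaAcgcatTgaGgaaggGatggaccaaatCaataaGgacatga
Snap23: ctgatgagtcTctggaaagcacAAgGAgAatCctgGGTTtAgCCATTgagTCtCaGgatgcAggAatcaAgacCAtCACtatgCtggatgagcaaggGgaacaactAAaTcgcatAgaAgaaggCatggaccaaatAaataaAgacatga
The *Vamp2* stretch covers coding bases 118 to 267 of the gene at chr11:68979354-68983207 on the plus strand. That of *Vamp3*, at chr4:151131762-151142410 on the minus strand, covers bases 79 to 228, and the pair differs at 25 of the 150 positions. *Snap25* at chr2:136555359-136624348 and *Snap23* at chr2:120398137-120431885, both on the plus strand, are shown from base 65 to 214 and from base 50 to 199 and differ at 39. Over the aligned coding sequences, identity was 70.5% for *Vamp2* and *Vamp3* with a longest identical run of 17 bases, and 67.4% for *Snap25* and *Snap23* with a run of 13 bases. Among the members, 0 of the 780 pairs of members shared an identical stretch of 100 bases in their transcripts.

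The axonal libraries differed in how much neuronal RNA they held. The summed level of 8 pan-neuronal markers was 4107 to 6480 CPM (counts relative to a library total scaled by TMM, the trimmed mean of M values) in the 8 somatodendritic libraries. In axons it was 1505, 2144, 456 and 1605 CPM in WT and 3343, 1505, 316 and 602 CPM in hnRNP R KO libraries. WT replicate 3 and hnRNP R KO replicates 3 and 4 were therefore low, and the main counts and pair shares for axons are also given without these 3. The 8 astrocyte and radial glia markers summed to 986 to 2097 CPM in somatodendritic and 1944 to 4882 CPM in axonal libraries, and those of fibroblasts or meningeal cells to 111 to 1374 and 361 to 4332 CPM. Oligodendroglia and Schwann cell markers spanned 125 to 843 CPM in somatodendritic and 44.7 to 1016 CPM in axonal libraries, and microglia markers 10.9 to 121 and 14.3 to 351 CPM. In WT axons, 4 of 8 astrocyte, 3 of 8 fibroblast, 1 of 8 microglia and 0 of 7 tested oligodendroglia markers were called higher. The share over all genes tested was 30.1%. In the same comparison 8 of 8 pan-neuronal markers and 3 of 6 tested motoneuron markers were called lower, against 27.4%. In hnRNP R KO axons, 2 of 8 astrocyte, 3 of 8 fibroblast, 1 of 8 microglia and 0 of 7 oligodendroglia markers were higher. Over all genes this was 27.5%. Lower there were 8 of 8 pan-neuronal and 3 of 6 tested motoneuron markers, against 26.8%. Of the motoneuron markers, *Mnx1* had 0 counts in 15 of the 16 libraries and *Chat* was at 0.657 to 1.30 CPM in somatodendritic libraries, while *Ret*, at 73.8 to 133 CPM there, made up most of their summed level. The name motoneuron is taken from the study, and the types of neuron that gave the RNA were not tested. *Hnrnpr* had 4574 to 5913 and 3922 to 15608 counts in WT somatodendritic and axonal libraries, and 13 to 27 and 18 to 38 counts in hnRNP R KO libraries, as the labels say.

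In WT motoneurons, 34 of the 40 transcripts were lower in axons and 2, *Vamp3* and *Snap23*, were higher at an adjusted p under 0.05 (edgeR quasi-likelihood test on all 16 libraries), whereas with libraries scaled to the pan-neuronal markers 4 were lower and 5 higher. Of all 19964 genes tested, 27.4% were lower and 30.1% higher in axons, and 1.08% and 73.8% with the scaling to pan-neuronal markers, under which the share of members called higher was below that of all genes. The median log2 fold change of the 40 genes was -2.09, a 4.27-fold lower level, against 0.07 for all genes tested. *Vamp4*, *Napa*, *Doc2b* and *Unc13c* did not pass the test. With the replicate number as a block, *Doc2b* did (adjusted p = 0.0155 from edgeR). Every axonal library lay below every somatodendritic library for 35 of the 40 members, which held for 27.6% of the genes tested. Each of the 40 genes had counts in at least 1 WT axonal library, with *Snap25* the most abundant per length in both compartments. *Doc2b*, at 0 in 1 axonal library, was the least abundant. In such bulk samples fewer neuronal processes and less of a transcript per axon cannot be told apart.

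**Figure D1:**
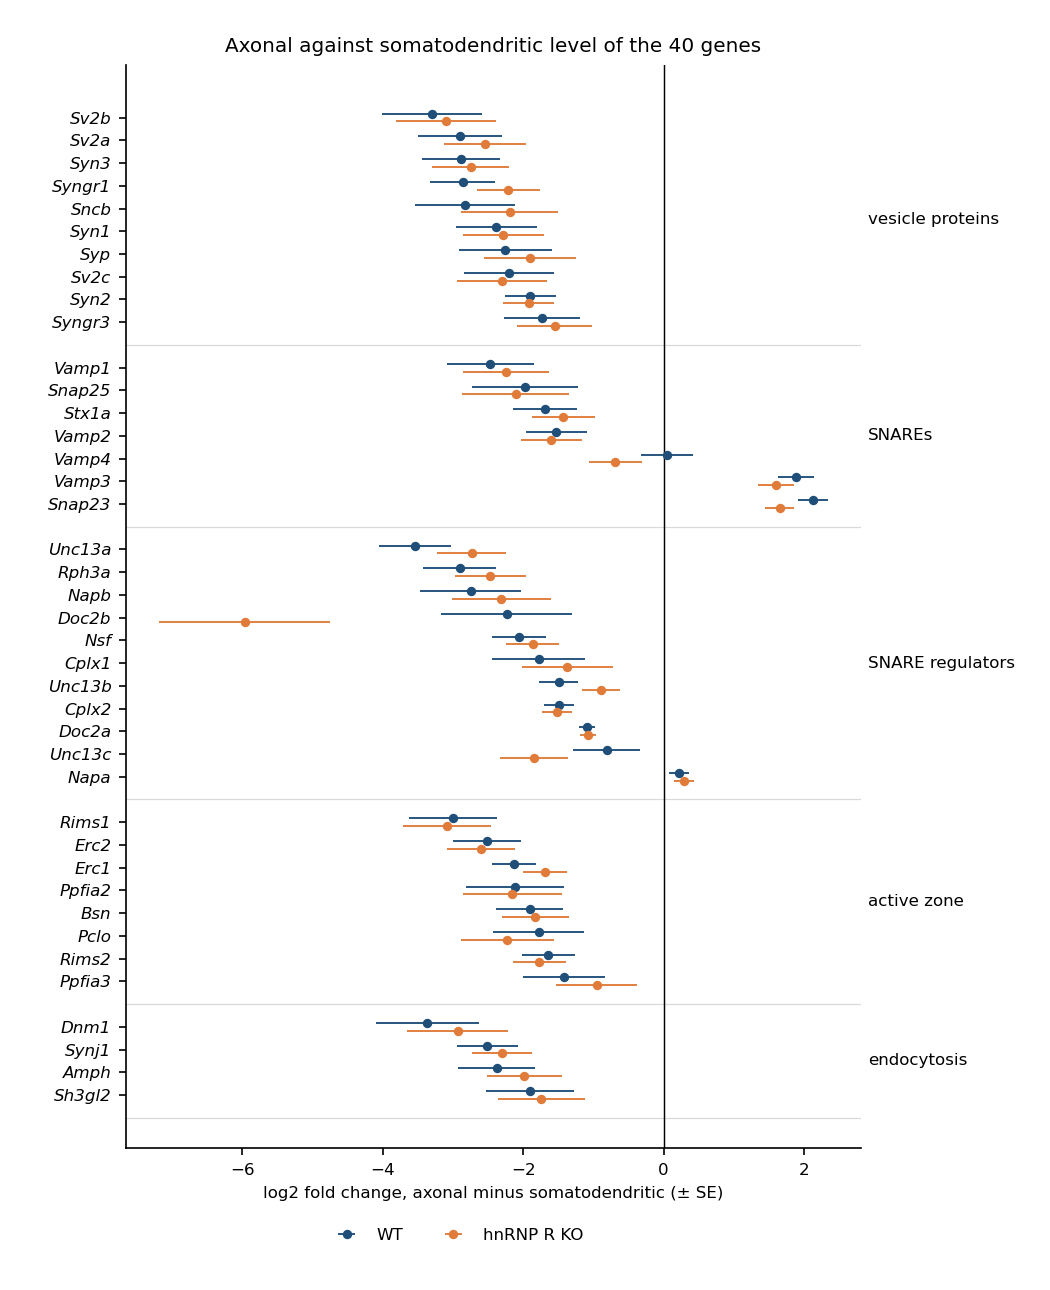
Log2 fold change of each of the 40 genes, axonal minus somatodendritic, with its standard error, in WT (blue) and hnRNP R KO motoneurons (orange), grouped by role. With TMM scaling, *Vamp3* and *Snap23* lie right of 0 in both genotypes, *Napa* slightly so, *Vamp4* near 0 in WT only, and the other members to the left. With libraries scaled to pan-neuronal markers, the medians of the 40 genes are -0.02 in WT and 0.01 in hnRNP R KO motoneurons.

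All 10 vesicle proteins were lower in WT axons, with a median log2 fold change of -2.61, and 1 of them, *Sv2b*, was also lower relative to the pan-neuronal markers. *Sv2b*, one of 3 genes for the SV2 membrane glycoproteins of the vesicle, had 110, 117, 102 and 92.04 CPM in somatodendritic and 14.9, 2.945, 2.73 and 22.1 CPM in axonal libraries. This was the largest fall of the group, at -3.30 (SE 0.71, adjusted p = 0.0014 from edgeR), and its axonal values fell into 2 low and 2 higher libraries. *Syp*, for synaptophysin, an abundant vesicle membrane protein, went from 760 ± 13.2 to 159 ± 78.7 CPM (SD, n = 4). The synapsins, which tether vesicles to each other and to actin, had log2 fold changes of -2.38 (*Syn1*), -1.90 (*Syn2*) and -2.88 (*Syn3*). The other SV2 genes *Sv2a* and *Sv2c* were at -2.90 and -2.20, and β-synuclein (*Sncb*) at -2.83. The synaptogyrins *Syngr1* and *Syngr3* spanned -2.86 to -1.73, the latter the smallest fall of the group.

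Under TMM scaling, the SNAREs were the role with calls in both directions. *Vamp1* and *Vamp2*, the vesicular SNAREs of neurons, *Snap25* and syntaxin 1A (*Stx1a*) were lower in axons, and *Vamp3* and *Snap23* were higher. Relative to the pan-neuronal markers 0 of the 7 were lower and *Vamp3*, *Vamp4* and *Snap23* higher. Over all genes tested, 1.08% were lower and 73.8% higher on that scale. *Vamp1* showed the largest fall of the group, with 169, 176, 218 and 131 CPM in WT somatodendritic and 36.3, 38.6, 12.4 and 38.0 CPM in axonal libraries (log2 fold change -2.47, SE 0.62, adjusted p = 0.0037 from edgeR). *Stx1a* was at -1.69. *Vamp4*, a SNARE of the trans-Golgi and endosomes, had 33.6, 42.1, 42.7 and 46.3 CPM in somatodendritic libraries and 29.9, 88.7, 19.0 and 32.7 CPM in axons, where replicate 2 alone was above them (log2 fold change 0.05, SE 0.37). Without that library the value was -0.60.

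*Vamp2* had 495, 522, 501 and 522 CPM in WT somatodendritic libraries and 171, 241, 83.7 and 211 CPM in axons, with no overlap (log2 fold change -1.53, SE 0.44, adjusted p = 0.008 from edgeR). *Vamp3*, for the cellubrevin of recycling endosomes in most cell types, had 32.1, 27.8, 35.6 and 30.0 CPM in somatodendritic libraries. Its axonal values were 108, 82.5, 139 and 134 CPM, all above them (1.89, SE 0.26, adjusted p = 6.6e-05). Per kilobase of exon, *Vamp3* was 5.16% to 6.77% of the sum of the pair in WT somatodendritic and 26.0% to 63.0% in axonal libraries. The library with the highest *Vamp3* level, replicate 3, was the one lowest for *Vamp2* and for pan-neuronal markers. In WT axons 4 of 8 astrocyte, 3 of 8 fibroblast, 1 of 8 microglia and 0 of 7 oligodendroglia markers were called higher. The share over all genes tested was 30.1%. The part of these cells in the *Vamp3* and *Snap23* levels was not tested.

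*Snap25*, the plasma membrane partner of *Vamp2* in neuronal exocytosis, had 1015, 1294, 1512 and 1082 CPM in somatodendritic libraries. The axonal values were 284, 622, 64.7 and 278 CPM, all below them and lowest in replicate 3 (log2 fold change -1.97, SE 0.76, adjusted p = 0.0371 from edgeR). *Snap23*, its counterpart outside neurons, had 11.6, 8.50, 10.8 and 9.85 CPM in somatodendritic and 39.4, 38.9, 48.3 and 51.4 CPM in axonal libraries. This gave 2.12 (SE 0.21, adjusted p = 1.8e-05), the largest rise of the 40 genes, and the groups did not overlap. The share of *Snap23* in the pair, per kilobase, was 0.54% to 0.939% in WT somatodendritic libraries and 4.92% to 38.1% in axons.

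Of the 11 SNARE regulators, 8 were lower in WT axons and 0 higher, with a median of -1.78. Relative to the pan-neuronal markers *Unc13a* was lower and *Napa* and *Unc13c* higher, against 1.08% and 73.8% of the genes tested. *Unc13a*, for the Munc13-1 protein that primes vesicles for fusion, had 160, 175, 135 and 135 CPM in somatodendritic and 15.7, 14.4, 6.49 and 15.2 CPM in axonal libraries. At -3.55 (SE 0.51, adjusted p = 9.6e-05 from edgeR) this was the largest fall of the 40 genes in the main fit. With the replicate number as a block *Sv2b* (-3.845) and *Dnm1* (-3.628) fell further than *Unc13a* (-3.615). Relative to the pan-neuronal markers *Dnm1* (-1.409) did so too (*Unc13a* -1.367). Its relative *Unc13b* had 50.7, 48.0, 37.7 and 39.5 CPM against 18.6, 10.9, 14.9 and 18.1 CPM (-1.49, SE 0.28), and replicate 3 was not its lowest axonal library. *Unc13c*, the third Munc13 gene, had 39.5, 33.1, 27.9 and 37.2 CPM in cell bodies and 8.17, 40.4, 10.6 and 19.4 CPM in axons. Replicate 2 was again the high axonal library (-0.81, SE 0.48), and without it the test was passed at -1.44. Per kilobase, *Unc13b* was 11.6% to 13.2% of the *Unc13a* and *Unc13b* sum in WT somatodendritic and 26.7% to 52.5% in axonal libraries. Over 4961 aligned coding bases the pair was 77.5% identical, where the coding sequences held 5025 bases in *Unc13a* and 13170 in *Unc13b*.

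*Nsf*, for the ATPase that separates used SNARE complexes, fell by 2.07 on the log2 scale, from 776 ± 29.1 to 185 ± 68.6 CPM (SD, n = 4). Of its adaptors, *Napb* was called lower and *Napa* was not called. *Napb*, for the neuronal β-SNAP, had 514, 557, 554 and 539 CPM in WT somatodendritic and 100, 95.5, 19.6 and 107 CPM in axonal libraries (-2.75, SE 0.72, adjusted p = 0.0047 from edgeR). *Napa*, for the α-SNAP of most cell types, had 232, 268, 238 and 273 CPM and 287, 257, 296 and 338 CPM, and these ranges overlapped (0.22, SE 0.14, adjusted p = 0.19). The share of *Napa* in the pair, per kilobase, was 46.9% to 51.0% in somatodendritic libraries and 84.7% to 96.9% in axons, and *Napa* moved from rank 12 to rank 2 of the 40 genes by level per length.

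The complexins, clamps and helpers of the SNARE complex, had log2 fold changes of -1.78 (*Cplx1*) and -1.49 (*Cplx2*), and rabphilin (*Rph3a*), a Rab effector on vesicles, was at -2.90. *Doc2a*, for a calcium sensor of spontaneous release, had 47.2, 41.7, 40.6 and 42.0 CPM in somatodendritic and 19.7, 19.9, 20.8 and 19.7 CPM in axonal libraries. Its fall of -1.10 was the smallest one called in WT and had the lowest SE, 0.11. In the GENCODE gene models, exons of *Doc2a* overlap those of *Ino80e* on the opposite strand over 1121 bases, and the library kit does not mark strand, so reads from there cannot be told apart. *Ino80e* was at 33.3 to 45.3 CPM in every library. *Doc2b* was near the limit of detection, with 73, 48, 61 and 54 counts in WT somatodendritic and 3, 63, 0 and 5 counts in axonal libraries, so replicate 2 held 63 of the 71 axonal counts. The zero in replicate 3 leaves room for as many as 3 counts by counting error. Its log2 fold change was -2.23 (SE 0.93, adjusted p = 0.0515 from edgeR). Without replicate 2 the fitted value, which depends on the prior count, was -4.71 and passed the test.

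The 8 active zone genes were lower in WT axons, with a median of -2.02, and *Rims1* was also lower relative to the pan-neuronal markers. *Rims1*, for the RIM1 scaffold that joins vesicles to calcium channels, had 133, 153, 130 and 121 CPM in somatodendritic and 16.1, 27.3, 4.94 and 19.0 CPM in axonal libraries (-3.00, SE 0.63, adjusted p = 0.0011 from edgeR). Its relative *Rims2* was at -1.64. The very large scaffolds Bassoon (*Bsn*) and Piccolo (*Pclo*) were at -1.91 and -1.78. Of the ELKS scaffold genes, *Erc2* had 158, 179, 158 and 142 CPM in somatodendritic and 25.6, 47.7, 9.19 and 28.7 CPM in axonal libraries (-2.52, SE 0.48). *Erc1*, used in many cell types, had 335, 344, 285 and 309 CPM and 64.8, 85.2, 56.5 and 84.8 CPM (-2.13, SE 0.31, adjusted p = 0.00011). The axonal values of *Erc1* were closer together than those of *Erc2*, and the share of *Erc1* in the pair was 45.5% to 50.3% in somatodendritic libraries and 45.3% to 74.0% in axons, which overlap. The liprins *Ppfia2* and *Ppfia3*, which bind RIM and ELKS proteins, were at -2.12 and -1.42.

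The 4 endocytosis genes were lower too, with a median of -2.44, and *Dnm1* also relative to the pan-neuronal markers. *Dnm1*, for the dynamin that cuts vesicles from the membrane, had 577, 661, 560 and 574 CPM in WT somatodendritic and 76.3, 61.2, 12.04 and 79.9 CPM in axonal libraries (-3.37, SE 0.73, adjusted p = 0.0015 from edgeR). *Synj1*, for the lipid phosphatase that uncoats vesicles, was at -2.51. The amphiphysin gene *Amph* and the endophilin gene *Sh3gl2*, whose proteins bend membrane and recruit dynamin, were at -2.38 and -1.90.

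**Figure D2:**
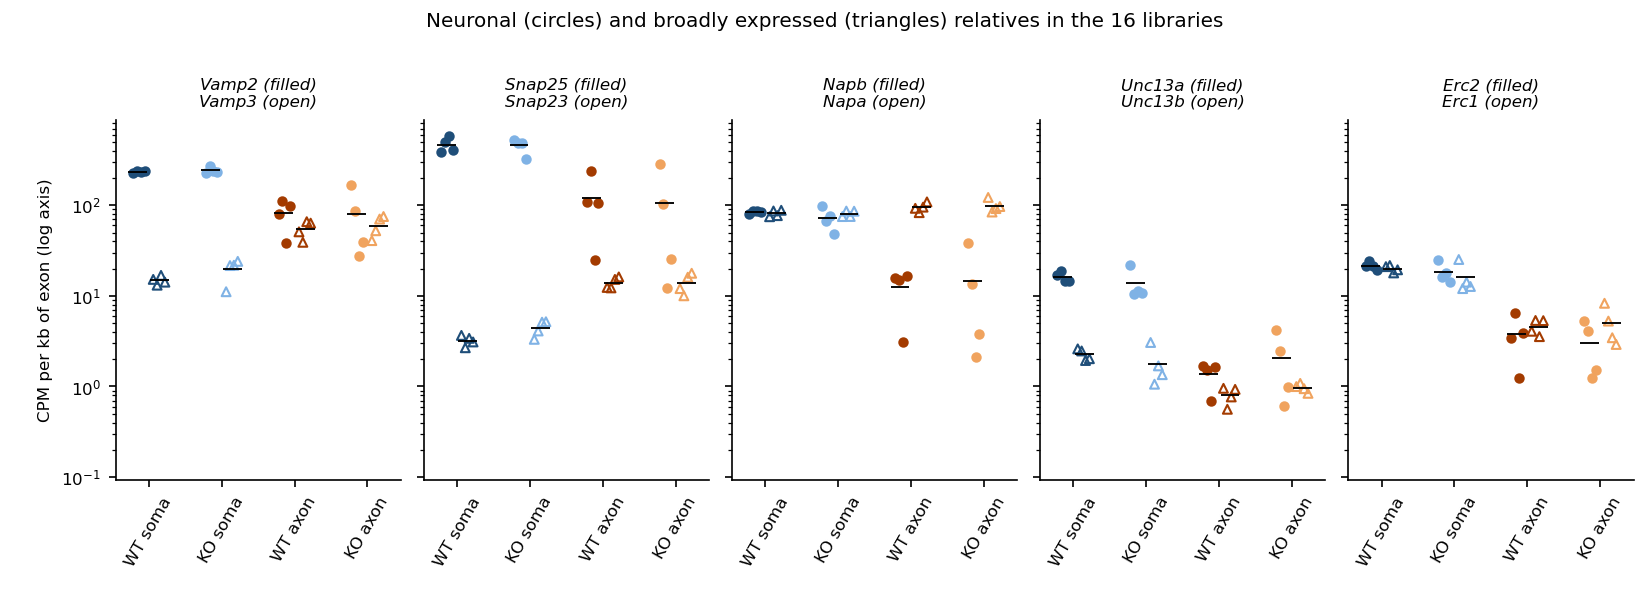
Levels per kilobase of exon (log axis) of a neuronal gene (filled circles) and its broadly expressed relative (open triangles) in the 4 libraries of each group, with bars for the means. Between WT somatodendritic and axonal libraries, *Vamp3* went from 14.8 to 54.8 and *Snap23* from 3.21 to 14.01 CPM per kilobase on average, while *Vamp2* went from 236 to 81.6 and *Snap25* from 467 to 119.

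The pair shares were also read without the 3 axonal libraries low in neuronal RNA. In the 3 remaining WT axonal libraries *Vamp3* made up 26.0% to 39.4%, *Snap23* 4.92% to 13.3%, *Napa* 84.7% to 86.7%, *Unc13b* 26.7% to 36.4% and *Erc1* 45.3% to 57.8% of its pair. The first 4 of these ranges lay above those of the WT somatodendritic libraries, and that of *Erc1* overlapped them. With all 4 axonal libraries kept, all 5 shares in hnRNP R KO motoneurons were higher in each axonal than in each somatodendritic library. There *Erc1* made up 42.5% to 50.4% of its pair in somatodendritic and 56.2% to 73.8% in axonal libraries, and *Vamp3* 4.64% to 9.28% and 19.7% to 71.9%. The ranges for *Snap23* were 0.622% to 1.58% and 4.05% to 56.9%, those for *Napa* 43.5% to 64.2% and 75.9% to 97.8%, and those for *Unc13b* 9.07% to 12.96% and 19.3% to 60.6%. Without the low libraries, 2 hnRNP R KO axonal libraries remained. In these *Vamp3* made up 19.7% to 37.6%, *Snap23* 4.05% to 8.91% and *Napa* 75.9% to 86.2% of its pair. *Unc13b* made up 19.3% to 30.6% and *Erc1* 56.2% to 61.35%.

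For 29 of the 40 genes, the 3 lowest of the 8 axonal libraries were the 3 with the least pan-neuronal RNA, an order found for 13.2% of the genes tested. The exceptions included *Vamp3*, *Vamp4*, *Snap23*, *Napa*, *Cplx2*, *Doc2a* and *Unc13b*. Also for 29 genes, hnRNP R KO replicate 1 was the highest axonal library, as for 20.2% of the genes tested. The 40 genes together made up 168% to 200% of the pan-neuronal sum in somatodendritic libraries and 161% to 198% in the 5 axonal libraries with more neuronal RNA. In the 3 low libraries this was 256% to 361%.

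**Figure D3:**
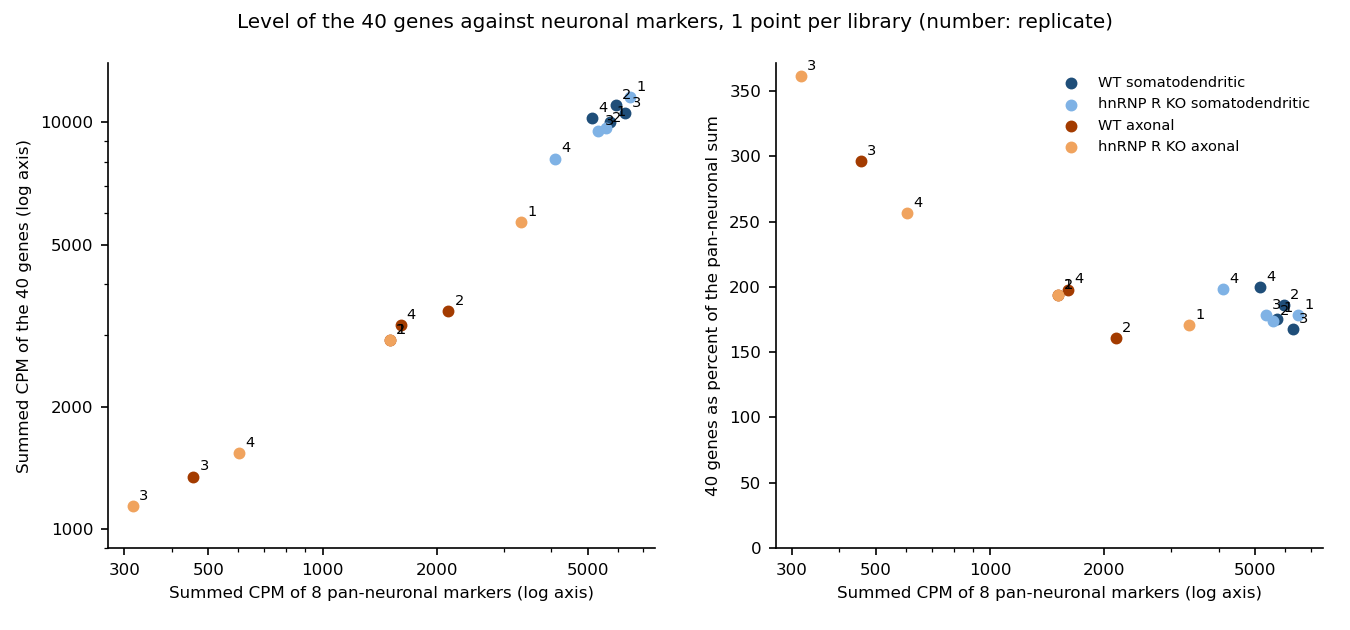
Summed level of the 40 genes against that of 8 pan-neuronal markers (left, log axes), and the former as a percentage of the latter (right), with a point for each library, numbered by replicate. The sum of the 40 genes was 8147 to 11550 CPM in somatodendritic and 1142 to 5699 CPM in axonal libraries, and its ratio to the marker sum was highest in WT replicate 3 and hnRNP R KO replicates 3 and 4 of the axonal libraries.

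Scaling the libraries to the pan-neuronal markers, an alternative chosen after the data were seen, shows the members relative to neuronal RNA. On this scale the median of the 40 genes was -0.02 in WT, while that of all genes tested moved from 0.07 to 2.54. *Vamp3*, *Vamp4*, *Snap23*, *Napa* and *Unc13c* were higher in WT axons relative to these markers, against 73.8% of the genes tested. *Sv2b*, *Unc13a*, *Rims1* and *Dnm1* were lower, against 1.08% of the genes tested. In hnRNP R KO motoneurons 7 members were higher and 3 lower, where the shares over all genes were 79.6% and 0.781%, and the median moved to 0.01. *Rims1* and *Dnm1* were lower in both genotypes. How far the compartment differences of single members follow the number of axons in a library was not tested.

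In hnRNP R KO motoneurons the compartment comparison again gave 34 members lower and 2 higher in axons under TMM scaling, with a median of -1.95 against -0.0028 for all genes. Of the genes tested, 26.8% were lower and 27.5% higher. Without axonal replicate 1 the median of the members was -2.71. The axonal libraries lay below the somatodendritic ones for 33 members, as for 27.3% of the genes tested. The WT and hnRNP R KO comparisons share no library, though one estimate of the spread, and 32 members were called lower in both, against 23.1% of the genes tested, and 34 in either direction, against 48.1%. *Vamp3* and *Snap23* were the members called higher, at 1.603 (SE 0.25) and 1.66 (SE 0.21). *Vamp3* had 23.5, 45.7, 46.0 and 50.8 CPM in hnRNP R KO somatodendritic libraries and 86.1, 111, 149 and 159 CPM in axons. *Snap23* had 10.5, 13.02, 16.3 and 16.5 CPM and 38.2, 31.8, 51.0 and 56.4 CPM. For both genes the ranges were apart.

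The largest falls in hnRNP R KO axons with enough counts were, in the main fit, those of *Sv2b* (-3.10), *Rims1* (-3.08), *Dnm1* (-2.93), *Syn3* (-2.75) and *Unc13a* (-2.74). With the replicate number as a block they were those of *Dnm1* (-3.684), *Rims1* (-3.524), *Sv2b* (-3.472), *Syn3* (-3.147) and *Sv2a* (-3.094). *Doc2b* had 67, 68, 34 and 40 counts in somatodendritic and 0, 3, 0 and 1 counts in axonal libraries. On summed counts it was 71.9-fold lower in axons with an exact 95% counting interval of 27.7 to 266. The fitted value of -5.97 depends on the prior count. *Unc13c* was called lower at -1.85 (SE 0.49), with 48.6, 21.6, 33.8 and 27.3 CPM in somatodendritic and 8.77, 12.01, 2.94 and 12.8 CPM in axonal libraries. *Vamp4*, *Napa*, *Cplx1* and *Ppfia3* were not called. The labels do not say that same-numbered libraries of the compartments came from one culture. With the replicate number as a block *Cplx1* and *Ppfia3* passed the test (adjusted p = 0.0194 and 0.0257 from edgeR), which made 36 members lower.

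Calls in the compartment comparisons were kept in each fit that left out 1 library for 31 of the 36 members called in WT and 31 of 36 in hnRNP R KO motoneurons. In WT, *Snap25* and *Ppfia3* lost theirs in 7 of 8 such fits, all but the one without axonal replicate 2, with adjusted p up to 0.0923 and 0.139. *Pclo* lost its call in 6 fits (without somatodendritic replicate 1, 2 or 3 or axonal replicate 1, 3 or 4), *Cplx1* in 5 (without any somatodendritic library or axonal replicate 3) and *Ppfia2* in 1 (without axonal replicate 3). *Doc2b* and *Unc13c* gained a call without axonal replicate 2. In hnRNP R KO motoneurons *Snap25* lost its call in 6 fits, without somatodendritic replicate 1, 2 or 3 or axonal replicate 2, 3 or 4. *Sh3gl2* did so without somatodendritic replicate 1 or 2 or axonal replicate 3 or 4, *Syngr3* without somatodendritic replicate 2 or axonal replicate 3 or 4, and *Syp* without somatodendritic replicate 1 or axonal replicate 4. *Unc13b* lost its call without somatodendritic replicate 1, and *Cplx1* and *Ppfia3* gained one without axonal replicate 1. Without the 3 axonal libraries low in neuronal RNA, 34 members were lower in WT (median -1.77) and 33 in hnRNP R KO axons (median -1.28), against 25.4% and 17.3% of the 20697 genes then tested. *Vamp3* and *Snap23* were higher in both, against 28.2% and 19.5%.

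Between the genotypes, 0 of the 40 members passed an adjusted p of 0.05 in cell bodies (edgeR on the 8 libraries), where 0.00557% of 17961 genes tested did, *Hnrnpr* alone. At an unadjusted p under 0.05 there was 1 member, and also 1 with DESeq2 or voom, against 2.62% of the genes tested. The members' log2 fold changes, hnRNP R KO minus WT, ran from -0.41 for *Syn3* to 0.47 for *Snap23*, with 32 below and 8 above 0 and a median of -0.13, against 0.01 for all genes. Standard errors were 0.09 to 0.29. *Snap23* had the smallest p, with 11.6, 8.50, 10.8 and 9.85 CPM in WT and 10.5, 13.02, 16.3 and 16.5 CPM in hnRNP R KO cell bodies, and replicate 1 of the latter lay within the WT range (SE 0.18, unadjusted p = 0.0214 and adjusted p = 0.999 from edgeR). *Syn3* was next, with 336, 339, 239 and 288 CPM in WT and 323, 186, 213 and 174 CPM in hnRNP R KO libraries (SE 0.20, unadjusted p = 0.0686). Here too hnRNP R KO replicate 1 was within the WT range and the other 3 below it. In the GENCODE models, exons of *Syn3* overlap *Timp3* over 1734 bases and *Fbxo7* over 3121 bases on the opposite strand.

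**Figure D4:**
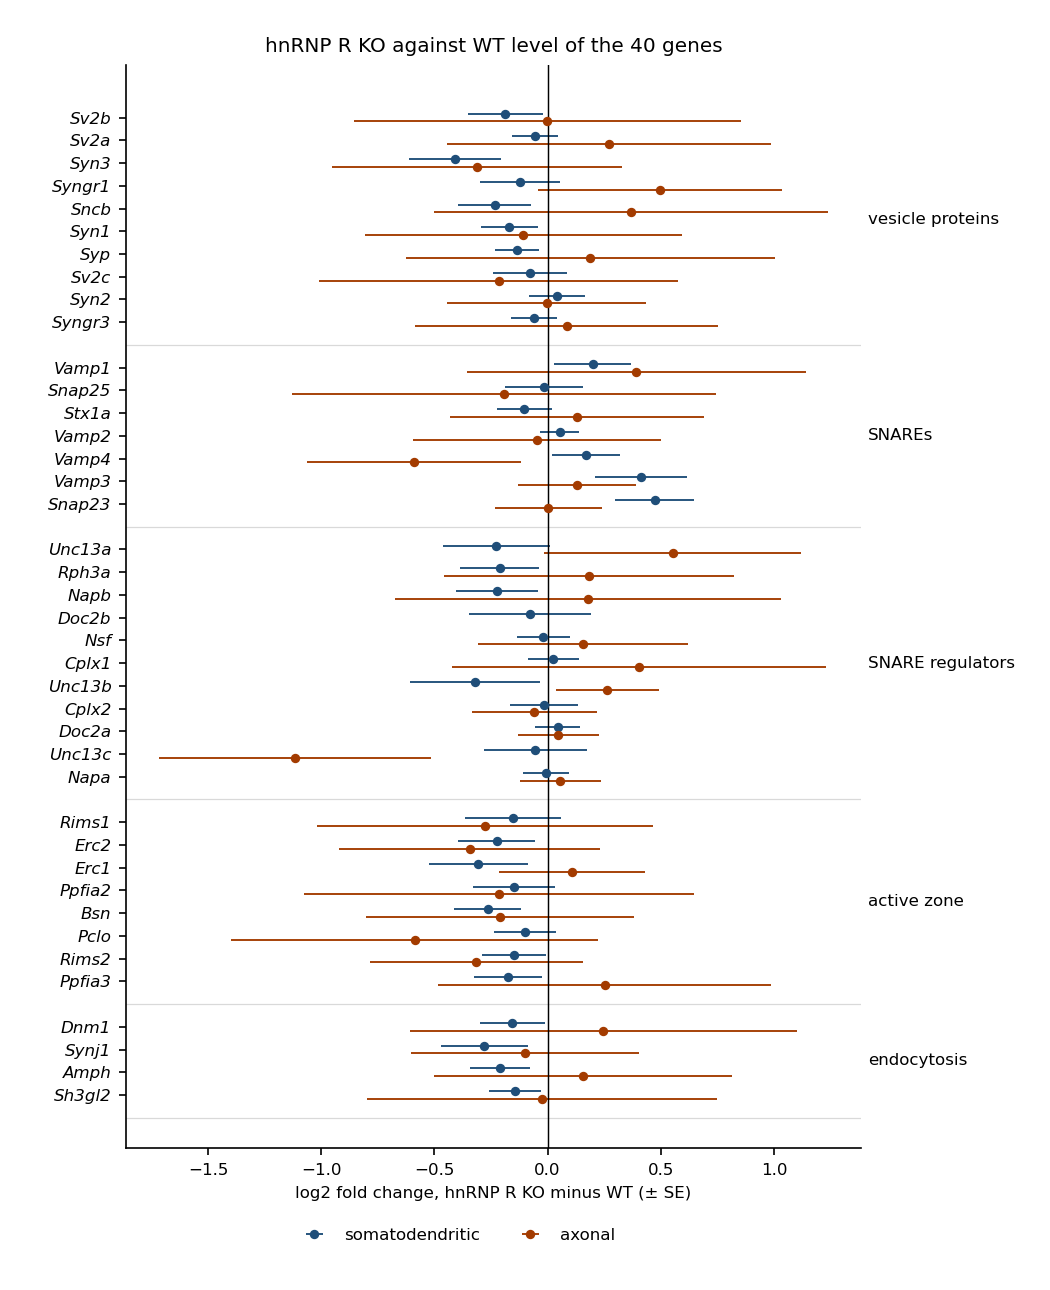
Log2 fold change of each of the 40 genes, hnRNP R KO minus WT, with its standard error, in the somatodendritic (blue) and axonal compartment (red-brown), from separate fits. *Doc2b* was not tested in axons. None of the points passed an adjusted p of 0.05, and the standard errors are 0.09 to 0.29 in the somatodendritic and 0.18 to 0.94 in the axonal compartment.

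The somatodendritic counts at an unadjusted p depended on hnRNP R KO replicate 1, which was the highest of the 4 hnRNP R KO libraries for 29 of the 40 members, as for 29.3% of the genes tested. Without it, 18 members were lower at an unadjusted p under 0.05 in edgeR, against 6.7% of the 18263 genes then tested, and 2, *Vamp3* and *Snap23*, were higher, against 5.85%. The median was -0.26, and 0 passed the adjusted threshold, the lowest adjusted p being 0.119. The active zone gene *Erc1* had the smallest p, at -0.62 (SE 0.10), with 401 CPM in replicate 1 and 192, 225 and 202 CPM in the other hnRNP R KO libraries. *Synj1* (-0.53), *Unc13a* (-0.56), *Syn3* (-0.65) and *Unc13b* (-0.72) followed among the lower members. *Unc13b* had 59.6 CPM in replicate 1 and 20.6, 32.9 and 26.3 CPM in the others, against 37.7 to 50.7 CPM in WT. *Snap25*, *Cplx1*, *Cplx2*, *Stx1a*, *Syn2*, *Syngr3*, *Napa*, *Doc2a* and *Vamp2* were within 0.10 of 0. Leaving out any other somatodendritic library gave 0 to 2 members at this level.

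Markers of other cells moved with this difference. In the same fit, 6 of 7 tested microglia, 3 of 8 fibroblast, 2 of 8 astrocyte and 2 of 7 oligodendroglia markers were higher at an unadjusted p under 0.05. Over all genes then tested, 5.85% were higher and 6.7% lower. The pan-neuronal markers had a median of -0.18 with 1 of 8 lower. The summed astrocyte markers were 986 CPM in hnRNP R KO replicate 1 and 1424, 1672 and 2097 CPM in replicates 2, 3 and 4, against 1051 to 1447 CPM in WT. The pan-neuronal sum was 6480 CPM in replicate 1 and 5573, 5326 and 4107 CPM in the others, against 5143 to 6276 CPM in WT. The part of these cells in the lower member levels was not tested. With libraries scaled to the pan-neuronal markers, and replicate 1 kept, the median of the 40 genes was -0.04.

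**Figure D5:**
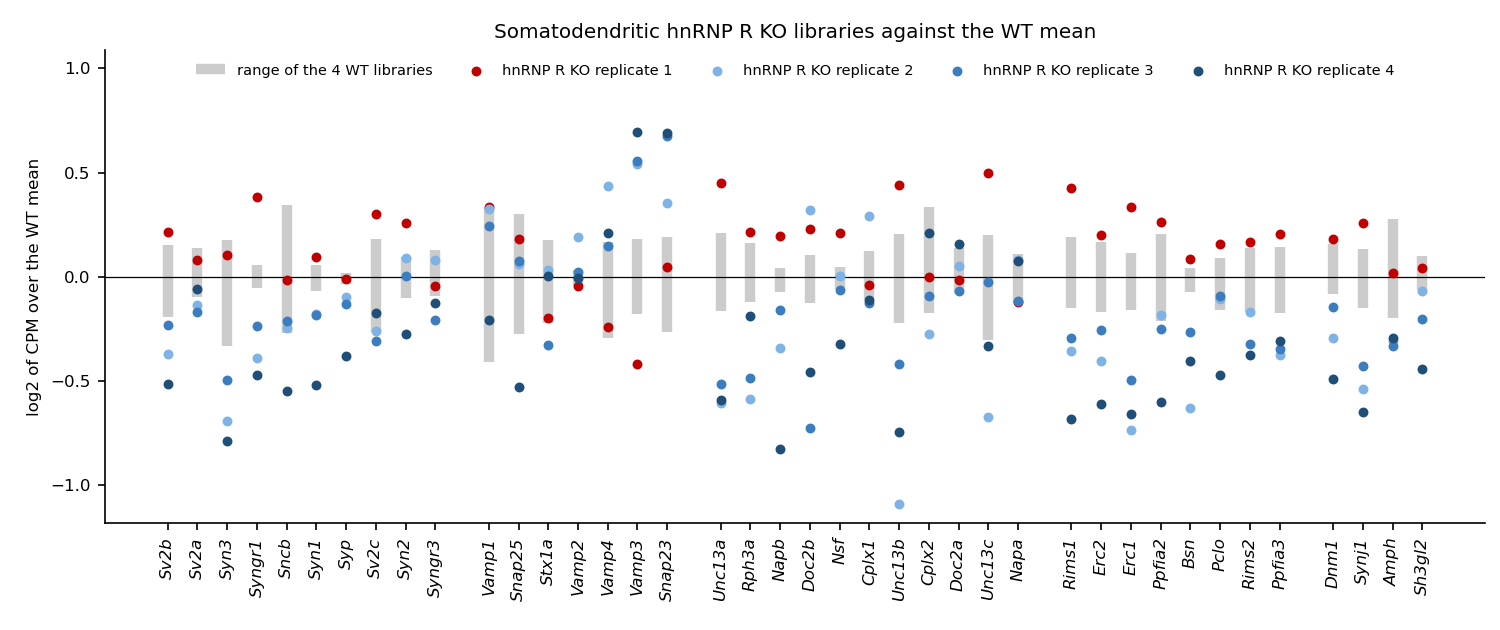
Log2 ratio of each hnRNP R KO somatodendritic library to the WT mean for the 40 genes, with the range of the 4 WT libraries as a grey bar. Replicate 1 (red) lies highest of the 4 for 29 genes, while *Vamp3* and *Snap23* are higher in replicates 2 to 4 (blue).

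In axons, 0 of the 39 members tested differed between the genotypes at an adjusted p under 0.05 (edgeR on the 8 libraries), as against 0.00528% of the 18957 genes, again *Hnrnpr*. At an unadjusted p under 0.05 there were also 0 members, against 0.723% of the genes tested, and DESeq2 with default settings gave 1. *Doc2b* did not pass the filter. The log2 fold changes ran from -1.12 for *Unc13c* to 0.55 for *Unc13a*, with a median of 0.05 and 21 of 39 above 0, against 0.02 for all genes. *Unc13c* had the smallest p, with 8.17, 40.4, 10.6 and 19.4 CPM in WT and 8.77, 12.01, 2.94 and 12.8 CPM in hnRNP R KO axons (SE 0.60, unadjusted p = 0.0956 and adjusted p = 1 from edgeR). WT replicate 2 stood above the rest, and without it the value was -0.47. *Vamp4* followed, with 29.9, 88.7, 19.0 and 32.7 CPM in WT and 37.1, 29.0, 17.3 and 31.0 CPM in hnRNP R KO axons (-0.59, SE 0.47, unadjusted p = 0.244), and was at 0.08 without WT replicate 2. Without the 3 axonal libraries low in neuronal RNA, 0 members passed the adjusted threshold and 1, *Unc13a*, an unadjusted p of 0.05, against 0.734% of the genes tested, and the median was 0.34.

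The spread between axonal libraries limits what this comparison can show. Standard errors of the members ran from 0.18 to 0.94 on the log2 scale, against 0.09 to 0.29 in cell bodies. hnRNP R KO axons ranged from 32.0 to 748 CPM for *Snap25*, from 9.12 to 171 CPM for *Dnm1* and from 12.4 to 303 CPM for *Cplx1*, with replicate 1 highest and replicate 3 lowest for each. Leaving out hnRNP R KO replicate 1 moved the median of the members to -0.68, and leaving out its replicate 3 moved it to 0.24. The least variable members gave the narrowest estimates. *Doc2a* was at 20.0 ± 0.527 CPM in WT and 20.8 ± 1.496 CPM in hnRNP R KO axons (SD, n = 4, SE 0.18). Its exons overlap those of *Ino80e*, and reads from the overlap cannot be told apart. *Napa* had a log2 fold change of 0.06 (SE 0.18), *Snap23* of 0.00 (SE 0.23), *Unc13b* of 0.26 (SE 0.23) and *Vamp3* of 0.13 (SE 0.26). With libraries scaled to the pan-neuronal markers the median was 0.15, whereas that of all genes was 0.52.

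An interaction term, which asks if the genotype effect differs by compartment, gave 0 members and 0.0% of 19964 genes at an adjusted p under 0.05 in edgeR. At an unadjusted p under 0.05 there was 1 member, *Doc2b*, against 1.33% of the genes tested (-3.73, unadjusted p = 0.0229 and adjusted p = 1). This value rests on the 63 counts of WT axonal replicate 2 and was -1.25 without that library. *Snap23* had the next smallest p (-0.47, unadjusted p = 0.124). Without the 3 axonal libraries low in neuronal RNA, 9 members were above 0 at an unadjusted p under 0.05, against 2.96% of the 20697 genes then tested, and 2 below 0, against 1.77%. The lowest adjusted p among them was 0.901 from edgeR, and 2 libraries then stood for the hnRNP R KO axons.

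Other genes of the presynaptic terminal were counted for comparison. Of 63 such genes that are not among the 40, 60 were tested. In WT axons 36 were lower and 10 higher, against 27.4% and 30.1% of all genes tested, with a median of -1.38. Relative to the pan-neuronal markers 9 were lower and 26 higher, against 1.08% and 73.8% of all genes. In hnRNP R KO motoneurons 40 were lower and 8 higher, against 26.8% and 27.5% of all genes, with a median of -1.41. Relative to the pan-neuronal markers 3 were lower and 30 higher there, against 0.781% and 79.6%. Without the 3 axonal libraries low in neuronal RNA, 38 were lower and 10 higher in WT axons, against 25.4% and 28.2% of all genes. In hnRNP R KO axons 34 were then lower and 8 higher, against 17.3% and 19.5%. By role, 9 of 12 tested vesicle proteins, 3 of 8 SNAREs, 5 of 9 SNARE regulators, 7 of 10 active zone and 12 of 21 endocytosis genes were lower in WT axons. Averaged across the 8 WT libraries of both compartments, some of these genes reached 5 CPM, and the largest falls among them were of *Slc32a1*, the vesicular transporter for GABA and glycine (-4.37, SE 0.68), *Apba1*, for the MINT1 adaptor (-3.74, SE 0.59), and *Rimbp2*, for a RIM-binding protein (-3.59, SE 0.64). *Slc32a1* had 39.9 to 56.4 CPM in WT somatodendritic and 0.714 to 3.68 CPM in axonal libraries, which did not overlap. The largest rises were of *Vamp8*, an endosomal SNARE (4.19, SE 0.61), *Syngr2*, a synaptogyrin found outside neurons (3.23, SE 0.53), and *Sypl*, a synaptophysin-like gene of many cell types (1.64, SE 0.21). *Vamp8* had 0.765 to 1.74 CPM in WT somatodendritic and 7.54 to 30.3 CPM in axonal libraries, again apart. In the genotype comparisons 0 of these genes passed an adjusted p of 0.05. At an unadjusted p under 0.05 there were 0 in the somatodendritic compartment and 1 in axons (*Stxbp6*, -0.96, SE 0.42). The shares over all genes were 2.62% and 0.723%.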

How the data were processed

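RNA was sequenced from 16 libraries, 4 for each genotype and compartment, which the titles of the samples define. The methods call the replicates biological, and the labels do not say that they were separate cultures, so p values measure the spread between these samples. The expected counts were made by the authors with Cutadapt, STAR 2.7.2b and featureCounts 1.6.4 (versions from the submitters' processing notes) on exons of the RefSeq annotation of GRCm39 in the reverse-strand setting, with reads of several positions or genes divided among them. They were deposited without normalization for 46320 genes. Total counts per library were 22024636 to 34863923, and intervals cover counting error only.

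Counts were rounded. In edgeR 4.0.16 (R 4.3.3), genes were filtered by group, libraries were scaled by TMM factors and quasi-likelihood models were fitted, on all 16 libraries for compartments and for the difference of genotype effects, and on the 8 libraries of a compartment for genotypes, because the common dispersion was 0.0499 in somatodendritic and 0.275 in axonal libraries. Tests were two-sided, and p values were adjusted by the Benjamini-Hochberg procedure across every gene in the fit. CPM use TMM-scaled totals, levels per length the exon length of the count table, which for *Syn3* holds 72060 bases. The genotype fits were also run on simulated counts with known changes, and the outcome is not given here. Alternatives were other scalings and filters, unrounded counts, other sets of libraries, a replicate block, DESeq2 1.42.0, limma 3.58.1 with voom, and each library left out.

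The members, the marker lists and the further presynaptic genes were chosen with earlier results of these data known. Values per library are given for the largest rise and fall of each role, 5 pairs of relatives and the members with the smallest p between genotypes. Of the further genes, the 3 largest rises and falls in WT are named among those that averaged 5 CPM or more across the 8 WT libraries. Values of *Syp*, *Nsf*, *Doc2a*, *Doc2b* and *Cplx1*, and those named for the library left out, were added after their values were seen. Of the 40 members, 21 overlap exons of another gene by at least 100 bases in GENCODE, whose gene models can be longer than the RefSeq exons that were counted. Same-numbered libraries of different compartments had correlations of 0.169 to 0.577 in hnRNP R KO and 0.083 to 0.292 in WT motoneurons over 19964 genes. The labels do not say that they came from one culture, so the replicate block is given beside the main fit.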

Additional observations from a re-analysis of the deposited data

Results flagged for a closer look

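Each member was compared among the 4 libraries of each group for a single library far from the other 3, by Dixon's ratio. This gave 13 of 160 cases, or 8.12%, against 7.35% over all genes tested. Chance alone would give about 1 in 20 for independent values, and libraries in which many members move together are not independent cases. WT axonal replicate 3 accounted for 7 of them, each a low value. There *Syn1* had 35.5 CPM against 117 to 130 CPM in the other WT axonal libraries, *Vamp1* 12.4 against 36.3 to 38.6 CPM, *Cplx1* 31.9 against 102 to 107 CPM and *Napb* 19.6 against 95.5 to 107 CPM. *Unc13a* had 6.49 against 14.4 to 15.7 CPM, *Amph* 17.4 against 60.2 to 64.4 CPM and *Sh3gl2* 18.3 against 93.9 to 106 CPM. This library also had the lowest pan-neuronal sum of its group, at 456 CPM. A further 4 cases were high values in hnRNP R KO somatodendritic replicate 1. They were *Unc13a* at 207 CPM against 99.3 to 106 CPM, *Erc1* at 401 against 192 to 225 CPM, *Ppfia3* at 156 against 104 to 109 CPM and *Amph* at 269 against 211 to 217 CPM. *Doc2b* stood out in WT axonal replicate 2, at 1.70 against 0 to 0.153 CPM, and *Dnm1* in WT somatodendritic replicate 2, at 661 against 560 to 577 CPM.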

How the results depend on the processing

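Scaling to the summed pan-neuronal markers, chosen after the data were seen, moved the compartment results most of the alternatives run. It gave 4 lower and 5 higher members in WT (median -0.0246) and 3 lower and 7 higher in hnRNP R KO motoneurons, where the median turned to 0.0066. Members whose log2 fold change turned positive under it in WT were *Syn2* 0.39, *Syngr3* 0.36, *Vamp2* 0.61, *Stx1a* 0.47, *Cplx1* 0.29, *Cplx2* 1.03, *Nsf* 0.0792, *Doc2a* 1.42, *Unc13b* 1.00, *Unc13c* 1.30, *Rims2* 0.46, *Bsn* 0.20, *Pclo* 0.12, *Erc1* 0.23, *Ppfia3* 0.64 and *Sh3gl2* 0.0445. In hnRNP R KO motoneurons they were *Syn2* 0.40, *Syngr1* 0.0475, *Syngr3* 0.32, *Vamp2* 0.49, *Vamp4* 1.94, *Stx1a* 0.62, *Cplx1* 0.22, *Cplx2* 1.35, *Nsf* 0.46, *Doc2a* 1.81, *Unc13b* 2.04, *Unc13c* 0.75, *Rims2* 0.67, *Bsn* 0.25, *Erc1* 0.88, *Ppfia3* 0.87 and *Sh3gl2* 0.0691. *Vamp4*, not called under TMM scaling, was at -0.20 in WT with the replicate block, -0.16 with voom, and -0.60 to 0.336 without WT axonal replicate 2 or 3. Between genotypes in axons it ran from -0.806 without WT axonal replicate 3 to 0.0765 without replicate 2, and was at 0.15 with pan-neuronal scaling. For those differences not set by the scaling itself, the cause was not tested.

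Under the other alternatives the counts of members called stayed within 1.5 times those reported, but single calls were lost or gained. With only the 8 libraries compared in the fit, 28 members were lower in hnRNP R KO axons, without *Syp*, *Syngr3*, *Snap25*, *Unc13b*, *Ppfia2* and *Sh3gl2*, and voom also lost *Unc13b*. With library totals, WT lost *Snap25* and *Ppfia3*, and *Napa* was called higher in both genotypes. *Ppfia3* lost its WT call under either other filter. *Doc2b* was called lower in WT under 5 of the 10 other settings, which were the filter on 10 counts, unrounded counts, the block, DESeq2 with default settings and voom. For hnRNP R KO axons voom added *Cplx1* and *Ppfia3*, DESeq2 with a beta prior *Vamp4*, and the filter on 10 counts *Napa*. Library totals moved the median of all genes by 0.15 in WT and 0.12 in hnRNP R KO motoneurons. Leaving out each library gave 29 to 36 lower members in WT (median -2.36 to -1.78) and 30 to 36 in hnRNP R KO motoneurons (-2.71 to -1.63). Between genotypes it gave 0 called members, with medians from -0.26 to -0.06 in the somatodendritic compartment and from -0.68 to 0.24 in axons. With the genotype-by-replicate number as a block, 35 members were lower in WT, *Doc2b* being added, and 36 in hnRNP R KO motoneurons, with no other change of a call. In the hnRNP R KO compartments, 3 of 4 axonal libraries correlated best with their own number. In WT, same-numbered libraries had correlations of 0.083 to 0.292, and 4 of 4 axonal libraries correlated best with their own number. Between genotypes the replicate block called 0 members in either compartment (median -0.25 in axons), where numbers gave correlations from 0.0 to 0.786 and 1 and 2 of 4 libraries correlated best with their own number. The dispersion of 0.275 among axonal against 0.0499 among somatodendritic libraries limits the genotype comparison in axons.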
